A study of Mus musculus with 8 samples.

Results

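Malat1, Neat1, Meg3, Rian, Miat and Snhg11 are 6 long noncoding RNAs that stay largely in the cell nucleus. They were followed here as a control for nuclear RNA that leaks into, or sticks to, a precipitate made with antibodies against the RNA-binding proteins CPEB1 and CPEB4. The members are all array probe sets that the platform annotation names with 1 of these 6 symbols and no other: 19 of 45101 probe sets, or 6 of the 17097 genes that the annotation names alone on a probe set. Meg3 has 10 of them, Rian 4, Miat 2, and Malat1, Neat1 and Snhg11 1 each. Probe sets of 1 gene share their transcript, so the 19 are not independent. A further 4 probe sets are annotated to Malat1 and Ramp2 together; they cannot be given to 1 gene, so they are described separately and are not counted among the 19.

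RNA immunoprecipitation (RIP) pulls down a protein together with RNA crosslinked to it. Striatum, the input nucleus of the basal ganglia, came from male WT mice and male HD mice aged 7 to 8 months, with 4 mice named in the design text and the tissue pooled by genotype; the labels do not spell out HD. After formaldehyde crosslinking and bead preclearing, each lysate gave 4 fractions. These were an aliquot kept as input and 3 precipitates, made with an antibody to CPEB1, an antibody to CPEB4, or rabbit IgG, which has no CPEB target. Each fraction of each pool has 1 array, which makes 8 arrays and 2 pools per fraction. The lysis covered total striatum, and the labels' protocols name no step that separates nuclei from cytoplasm. RNA amplification ran for 27 cycles, and each array took 8 ug of cDNA. A value therefore reflects an RNA's share of its fraction and not the amount precipitated. Each pool is a mixture of mice, so the spread between pools does not measure the spread between animals, and a difference between the pools holds genotype and handling together. In pooled tissue, fewer cells of a type and less RNA per cell cannot be told apart.

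CPEB proteins bind an element in the 3′ untranslated region of mRNAs and act on the length of the poly(A) tail, mostly in the cytoplasm. Malat1 gathers in nuclear speckles, bodies rich in splicing factors, and Neat1 is the scaffold of paraspeckles, which form beside them. Meg3 and Rian are transcribed from the maternal copy of the Dlk1-Dio3 imprinted domain and are abundant in neurons; Rian carries small nucleolar RNAs in its introns. Miat, also called Gomafu, forms its own nuclear dots in neurons, and Snhg11 is a neuronal host gene of small nucleolar RNA.

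The deposited values are log2 summaries, so a difference of 1 is 2-fold. A value of 4.23, the median of all probe set means, serves as a mark for the dim end of the scale; 17 of the 19 had a mean above it, and the other 2, both of Rian, lay at 3.51 and 3.25. Probe sets differ in how well they bind, so levels are compared between arrays for 1 probe set and not between probe sets. Array medians lay between 4.03 and 4.28. The CPEB4 arrays had the widest spread in each pool, with SDs of 1.80 and 1.69 over all probe sets. The 3′ minus 5′ difference of the actin control probe sets, a sign of RNA quality, was -0.12 and -0.78 on the inputs and lay between -2.45 and -0.79 on the 6 precipitate arrays. The same difference for Gapdh was -0.61 and -0.25 on the inputs and -0.46 to 0.04 on the precipitates, and for the transferrin receptor 0.51 and 0.95 against -0.15 to 0.68, so for these controls inputs and precipitates overlap. Their part in the differences from input below was not tested. Of 8 measured markers of medium spiny neurons, the main striatal cell type, 7 had an input mean above 4.23. Among them Ppp1r1b stood at 11.07 and 10.30, while Drd1 (4.53 and 4.47) and Drd2 (4.56 and 5.05) lay close to that mark. The eighth, Tac1, stood at 3.22 in WT and 3.92 in HD input. Of 3 choroid plexus markers, Ttr differed between the inputs at 6.60 in WT and 10.49 in HD. The others were nearly level, Kl at 4.73 and 4.94 and Folr1 at 4.25 and 4.31.

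**Figure D1:**
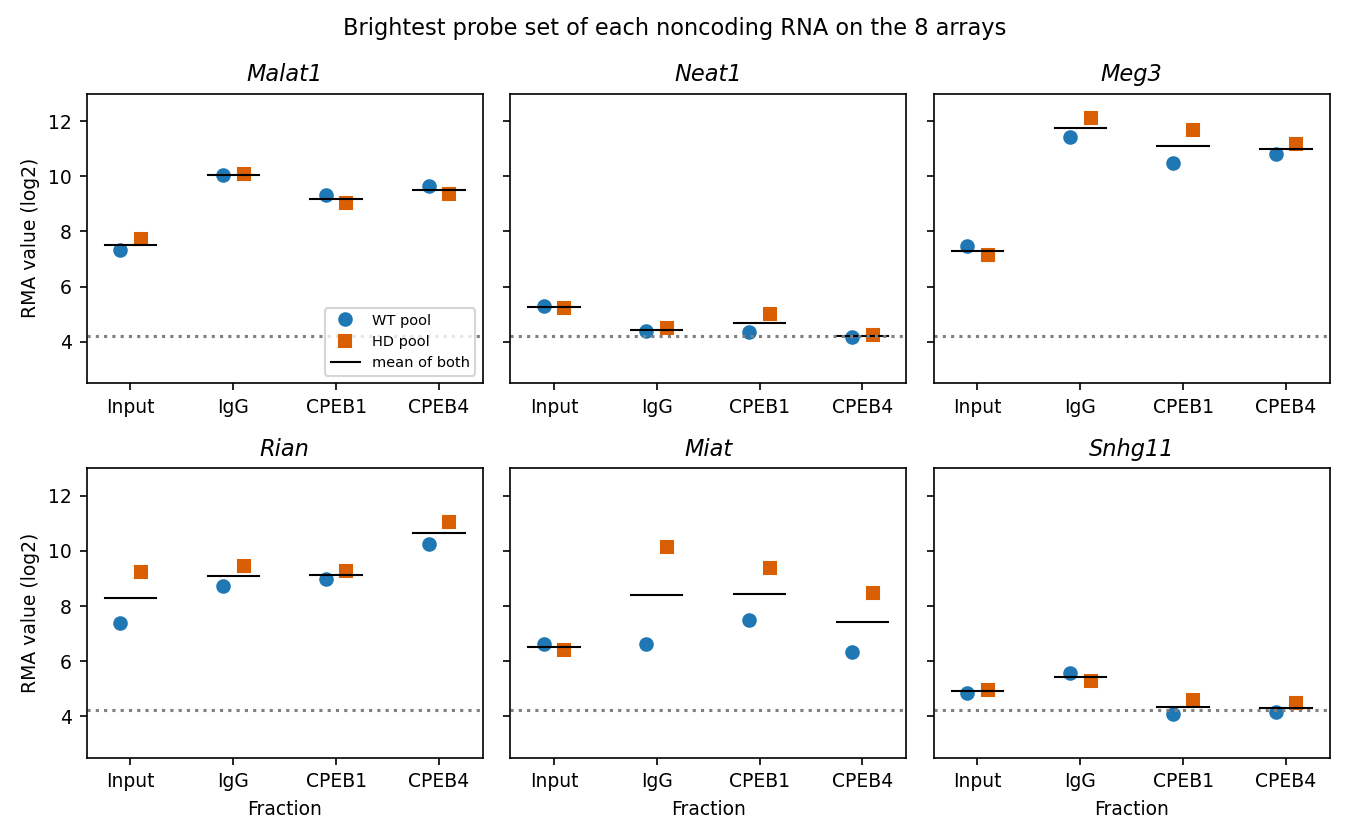
Log2 value on each of the 8 arrays for the probe set of each gene with the highest mean (circle, WT pool; square, HD pool; bar, mean of both; dotted line, the median of all probe set means at 4.23). Malat1 and Meg3 sit above input on all 6 precipitate arrays and Neat1 below, and Miat is level with input on the WT IgG array and 3.74 above it on the HD IgG array.

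The first comparison set the share of these RNAs with beads and IgG alone against their share in input. Malat1 and Meg3 were brighter on both IgG arrays than on both inputs, by several-fold, although single probe sets did not pass the test. Malat1 stood at 7.33 in WT and 7.72 in HD input and at 10.05 and 10.07 with IgG. The inputs are thus the 2 low arrays and the groups do not overlap. The difference was 2.53 ± 0.23 on the log2 scale (moderated SE from limma, n = 2 pools), or 5.77-fold (limma adjusted p = 0.126). This SE draws on the residuals of all 8 arrays, so a probe set has the same SE in all 6 comparisons. It is not the spread of that single difference between the pools. The brightest Meg3 probe set, 1426758_PM_s_at, stood at 7.46 and 7.15 in input and at 11.43 and 12.10 with IgG. Here too the groups lie far apart, with a difference of 4.45 ± 0.38, or 21.9-fold (limma adjusted p = 0.112). That difference lies above 99.96% of all probe sets tested, and the Malat1 difference above 99.68%.

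Other Meg3 probe sets gave a like picture, but not all of them. With IgG, 1429256_PM_at stood at 8.40 and 9.26 against 5.04 and 5.06 in input (3.78 ± 0.26). The values of 1452905_PM_at were 8.19 and 8.81 against 4.41 and 5.66 (3.47 ± 0.22), and those of 1428764_PM_at 8.79 and 10.11 against 6.70 and 7.12 (2.54 ± 0.45). In 1452906_PM_at the IgG arrays read 6.61 and 9.44 and the inputs 5.32 and 6.36, so that WT IgG lay just above HD input. The other 5 Meg3 probe sets had differences from -0.28 to 0.74. Among these, 1429257_PM_at was bright in all fractions and went opposite ways in the pools, 1.77 lower on the log2 scale with IgG than in input in WT and 1.62 higher in HD. The annotation used here does not place the probe sets along the transcript.

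Neat1, Rian, Miat and Snhg11 had smaller or opposite differences than the 5 Meg3 probe sets that were at least 2-fold higher with IgG in both pools. Neat1 stood at 5.28 and 5.21 in input and at 4.39 and 4.50 with IgG, a difference of -0.80 ± 0.23 (limma adjusted p = 0.468). The groups do not overlap, and the direction is opposite to that of its chromosomal neighbour Malat1. The brightest Rian probe set, 1427580_PM_a_at, had 7.39 and 9.22 in input and 8.72 and 9.46 with IgG; these overlap. The 2 brighter Rian probe sets differed from input by 0.79 ± 0.39 and -0.04 ± 0.44. Miat was 6.63 and 6.40 in input and 6.63 and 10.14 with IgG, so only the HD pool was higher. Snhg11 had 4.86 and 4.97 in input and 5.57 and 5.27 with IgG, a small gap of 0.50 ± 0.24 with no overlap.

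Over the 19 probe sets the median difference of IgG from input was 0.68, against -0.04 over all 45037 tested; it was 1.16 without the WT IgG array and 0.47 without the HD input array. Of the 19, 14 were above 0, against 44.4% of all. At least 2-fold higher in both pools were 6 of the 19, Malat1 and 5 of Meg3, where 0.959% of all probe sets were, or 1.79% of those with a mean above 4.23; 0 were 2-fold lower in both, where 1.71% were. Both IgG arrays were above both inputs for 9 of the 19 (18.9% of all) and below for 2 (25.8% of all). By limma 0 of the 19 passed at an adjusted p under 0.05, but the test called only 1 probe set of all as higher (0.00222%) and none as lower. At an unadjusted p under 0.05 there were 6 higher (3.6% of all) and 1 lower (5.34%).

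**Figure D2:**
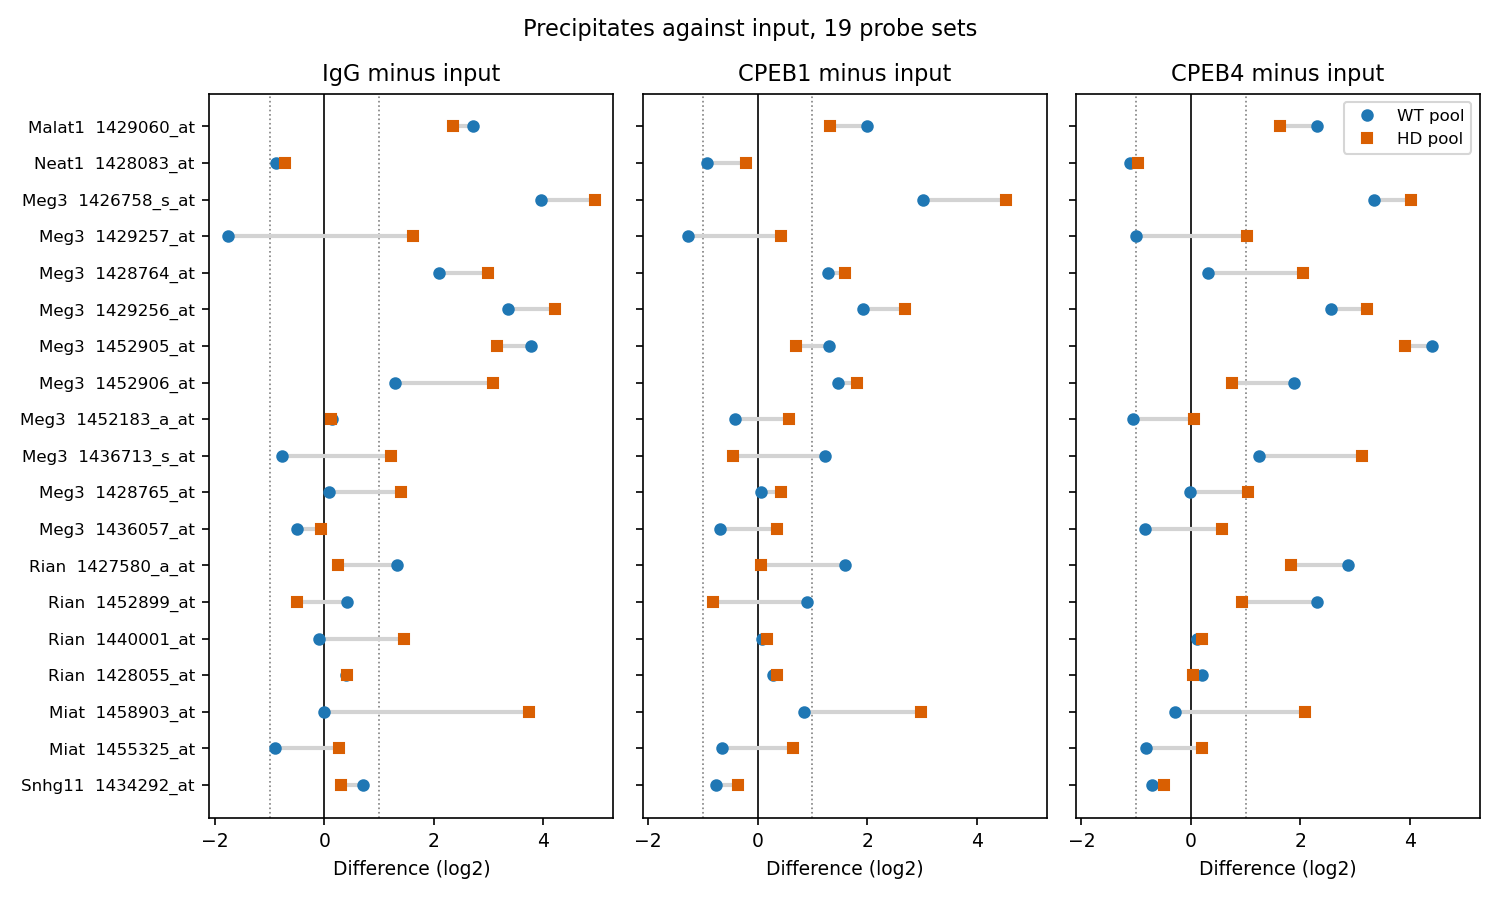
Log2 difference of each precipitate from input for the 19 probe sets, with genes grouped and the brightest first (circle, WT pool; square, HD pool; dotted lines, 2-fold). Malat1 and Meg3 1426758_PM_s_at and 1429256_PM_at lie right of the upper 2-fold line in both pools with IgG and with both antibodies. Meg3 1428764_PM_at and 1452906_PM_at do so with IgG and CPEB1, and 1452905_PM_at with IgG and CPEB4. The 2 brighter Rian probe sets stand out with CPEB4.

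With the CPEB antibodies the same RNAs were again above input. The CPEB4 and CPEB1 differences from input use the same input arrays as the IgG difference, so the 3 are given side by side. Malat1 read 9.63 in WT and 9.35 in HD with CPEB4 and 9.32 and 9.05 with CPEB1, between input and IgG on each array. It rose over input with CPEB4 (1.97 ± 0.23, 3.91-fold, limma adjusted p = 0.0408), and was 1.66 ± 0.23 above it with CPEB1 (limma adjusted p = 0.212). The brightest Meg3 probe set read 10.80 and 11.18 with CPEB4 and 10.47 and 11.69 with CPEB1. All 4 of those arrays lie more than 3 log2 units above both inputs. Its differences from input were 3.68 ± 0.38 with CPEB4 (12.8-fold, limma adjusted p = 0.037) and 3.78 ± 0.38 with CPEB1 (limma adjusted p = 0.133).

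Of the 10 Meg3 probe sets, 6 were higher than input in both pools with CPEB4. Without passing the test, 1436713_PM_s_at was 1.25 higher in WT and 3.13 in HD, and 1452906_PM_at 1.88 and 0.75. Besides the brightest, 2 passed as higher. 1452905_PM_at read 8.81 and 9.58 (4.16 ± 0.22 above input, 17.8-fold, limma adjusted p = 0.0202) and 1429256_PM_at read 7.60 and 8.27 (2.89 ± 0.26, 7.40-fold, limma adjusted p = 0.0286). With CPEB1 they read 5.71 and 6.36, and 6.97 and 7.75. Against input with CPEB1 the first differed by 0.999 ± 0.219 (limma adjusted p = 0.467) and the second by 2.31 ± 0.26 (limma adjusted p = 0.143), both with no overlap of the arrays. In all, 4 of the 19 passed as higher with CPEB4 than in input, 3 of Meg3 and 1 of Malat1, where 1.22% of all probe sets did, and 0 passed as lower (0.135% of all). These 4 became 1 without either CPEB1 array and 0 without any 1 of the other 6 arrays. They became 2 under quantile normalization and under cyclic loess, and 0 with only the 4 CPEB4 and input arrays in the fit. Over the alternatives in which each was tested, Meg3 1452905_PM_at passed in 9 of 16, 1429256_PM_at and Malat1 in 4 of 16 each, and 1426758_PM_s_at in 3 of 15.

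Rian was higher over input with CPEB4 than with the other precipitates, though it did not pass. Its brightest probe set read 10.26 and 11.05 with CPEB4 against 7.39 and 9.22 in input (2.35 ± 0.39, limma adjusted p = 0.0698). The second, 1452899_PM_at, read 10.83 and 10.18 against 8.52 and 9.24 (1.62 ± 0.44, limma adjusted p = 0.135). Both CPEB4 arrays were above both inputs in each. With CPEB1 the 2 read 8.98 and 9.27, and 9.42 and 8.42, which overlap the inputs.

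Neat1 was below input in every precipitate. It read 4.18 and 4.24 with CPEB4 (-1.04 ± 0.23, limma adjusted p = 0.105) and 4.36 and 4.996 with CPEB1 (-0.57 ± 0.23). All 6 precipitate arrays lay below both inputs, as for 9.51% of all probe sets. On the CPEB4 arrays it was at the mark of 4.23, so the size of its difference may depend on the array background, which was not estimated. Snhg11 also lay lower with both antibodies than in input, at 4.15 and 4.49 with CPEB4 (-0.60 ± 0.24) and 4.10 and 4.61 with CPEB1 (-0.56 ± 0.24), again near that mark. Miat read 6.35 and 8.48 with CPEB4 and 7.49 and 9.38 with CPEB1, again with the HD pool higher.

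All 6 precipitate arrays lay above both inputs for 6 of the 19 probe sets, 4 of Meg3, Malat1 and a dim one of Rian, against 2.98% of all probe sets. The median difference from input over the 19 was 0.90 with CPEB4 (-0.19 over all) and 0.31 with CPEB1 (-0.05 over all). The CPEB4 median was 0.13 without the HD input array, and the CPEB1 median 0.70 without the WT input array. At least 2-fold higher than input in both pools were 6 of the 19 with CPEB4 (6.61% of all, 12% of those with a mean above 4.23) and 5 with CPEB1 (1.6% and 3.18%), and 0 were 2-fold lower (1.11% and 0.802% of all). Both CPEB4 arrays were above both inputs for 10 of the 19 (17.1% of all) and below for 2 (45.6%); for CPEB1 these were 8 (12.9%) and 2 (22.1%). At an unadjusted p under 0.05, 7 were higher with CPEB4 than in input (8.71% of all) and 1 lower (14.9%). For CPEB1 against input 0 of the 19 passed by limma, where 0.00666% of all passed as higher and 0.00222% as lower, with 5 higher at an unadjusted p under 0.05 (3.12% of all) and 0 lower (3.41% of all).

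The 4 probe sets annotated to both Malat1 and Ramp2 were above input with IgG, like the Malat1 probe set, but did not follow it in all readings. On 1452378_PM_at the inputs read 9.14 and 7.22, IgG 11.74 and 12.18, CPEB1 10.23 and 11.39, and CPEB4 11.49 and 11.33. On 1427285_PM_s_at they read 8.34 and 8.86, then 11.39 and 12.35, 9.99 and 11.02, and 11.10 and 11.15. In both, all 6 precipitate arrays were above both inputs and IgG was the highest fraction. IgG minus input over the 4 was 3.78 ± 0.74, 3.27 ± 0.29, 3.23 ± 0.41 and 0.998 ± 0.277. The last, 1436202_PM_at, differed from input by 0.05 ± 0.28 with CPEB4 and 0.20 ± 0.28 with CPEB1, and both overlap input. For 1438403_PM_s_at these were 2.23 ± 0.41 and 1.21 ± 0.41, and CPEB1 overlaps input. In input, HD minus WT was -1.93 on 1452378_PM_at and -1.55 on 1438403_PM_s_at, against 0.39 for Malat1. Ramp2, a receptor activity modifying protein, has a probe set of its own, which read 4.27 and 7.63 in input and 11.83 and 12.24 with IgG.

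Whether these RNAs made up a larger share with the CPEB antibodies than with IgG was compared next. For Malat1 and Snhg11 both antibodies gave lower values than IgG in both pools, and for Rian CPEB4 gave higher ones; single probe sets did not pass in either direction. Malat1 differed from IgG by -0.56 ± 0.23 with CPEB4 (limma adjusted p = 0.247) and by -0.87 ± 0.23 with CPEB1 (limma adjusted p = 0.698). Both IgG arrays were above all 4 antibody arrays. After quantile normalization these became -1.35 and -1.26. Snhg11 had its highest values on the IgG arrays, and differed from them by -1.10 ± 0.24 with CPEB4 (limma adjusted p = 0.121) and -1.07 ± 0.24 with CPEB1 (limma adjusted p = 0.569).

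For Meg3 the probe sets split. The brightest was below IgG by 0.62 and 0.92 with CPEB4 in WT and HD, and by 0.95 and 0.40 with CPEB1. Its HD CPEB1 value of 11.69 lay above the WT IgG value of 11.43, so only the CPEB4 groups are clear of IgG. 1429256_PM_at was lower than IgG with both antibodies, by -0.90 ± 0.26 for CPEB4 and -1.47 ± 0.26 for CPEB1. 1452905_PM_at was 0.69 ± 0.22 above IgG with CPEB4 and -2.47 ± 0.22 from it with CPEB1, nearly the same in both pools (-2.48 and -2.45). After quantile normalization the CPEB4 difference of this probe set turned to -0.35. 1436713_PM_s_at was above IgG with CPEB4 by 2.03 in WT and 1.91 in HD, while with CPEB1 the pools went opposite ways. With CPEB4, 2 Meg3 probe sets were higher than IgG in both pools, 5 lower in both, and 3 mixed; with CPEB1 these counts were 0, 5 and 5.

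In Rian, CPEB4 was the highest fraction in each pool for both brighter probe sets. The brightest read 10.26 and 11.05 with CPEB4, above 8.72 and 9.46 with IgG, and the second read 10.83 and 10.18 above 8.94 and 8.74. The differences from IgG were 1.57 ± 0.39 (2.96-fold, limma adjusted p = 0.141) and 1.66 ± 0.44 (3.17-fold, limma adjusted p = 0.152). With CPEB1 they were 0.034 ± 0.387 and 0.082 ± 0.435, and turned to -0.50 and -0.44 under quantile normalization. Such a CPEB4 difference is not rare on these arrays, where the 2 lie above 91.98% and 92.62% of all probe sets. Under quantile normalization they became 0.86 and 0.93, and under cyclic loess 0.37 and 0.47. The other 2 Rian probe sets were dim, and differed from IgG with CPEB4 by -0.53 ± 0.44 and -0.29 ± 0.16.

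Neat1 differed from IgG by -0.24 ± 0.23 with CPEB4 and 0.23 ± 0.23 with CPEB1, both about the size of the SE from all 8 arrays. By pool, the CPEB4 difference was -0.22 in WT and -0.25 in HD, and the CPEB1 difference -0.03 and 0.50. The brighter Miat probe set was below IgG with CPEB4 by 0.28 in WT and 1.66 in HD. With CPEB1 it was 0.86 above IgG in WT and -0.76 from it in HD. The dimmer one, 1455325_PM_at, differed from IgG by 0.01 ± 0.36 with CPEB4 and 0.32 ± 0.36 with CPEB1.

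**Figure D3:**
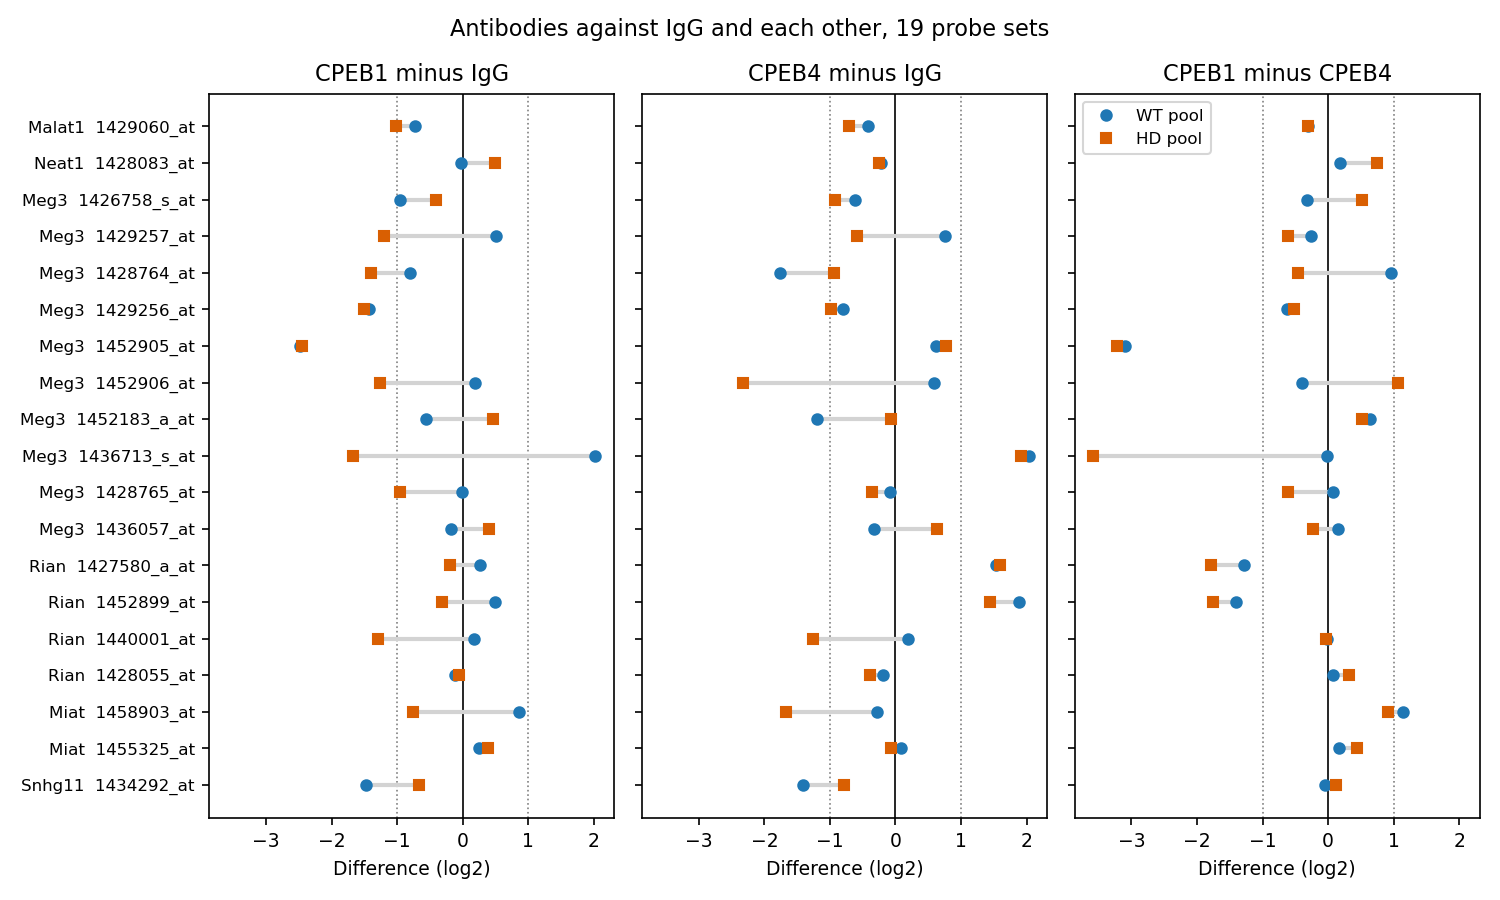
Log2 differences of CPEB1 and CPEB4 from IgG and of CPEB1 from CPEB4 for the 19 probe sets (circle, WT pool; square, HD pool; dotted lines, 2-fold). The 2 brighter Rian probe sets lie past 2-fold above IgG in both pools with CPEB4 and near 0 with CPEB1, and Meg3 1452905_PM_at lies at -2.48 and -2.45 with CPEB1.

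Over the 19, CPEB4 minus IgG had a median of -0.29, against -0.17 over all probe sets, and turned to 0.15 without the HD IgG array; without the WT IgG array it was -0.60. By limma 0 of the 19 passed, where 1.26% of all passed as higher and 0.0577% as lower. At an unadjusted p under 0.05, 3 were higher (9.9% of all) and 3 lower (11.4% of all). Both CPEB4 arrays were below both IgG arrays for 7 of the 19 and above for 3, against 46.5% and 19.2% of all probe sets; the first share lies under the background. At least 2-fold higher in both pools were 3 (7.95% of all, 14.5% of those with a mean above 4.23) and 2-fold lower 0 (0.806% of all). All 3 have such a mean, as do 17 of the 19, so this count is near the background. CPEB1 minus IgG had a median of -0.35, against -0.01 over all, with -0.80 without the WT IgG array and -0.067 without the HD IgG array. By limma 0 of the 19 passed, and 0% of all in either direction, with 0 higher (3.57% of all) and 4 lower (2.16%) at an unadjusted p under 0.05. Both CPEB1 arrays were below both IgG arrays for 7 of the 19 and above for 0, where 18.3% and 17.1% of all probe sets were. At least 2-fold lower in both pools were 2, both of Meg3 (0.382% of all), and 2-fold higher 0 (2.06% of all). Cyclic loess moved the median of all probe sets for CPEB4 minus IgG from -0.17 to 0.00, for CPEB4 minus input from -0.19 to 0.01, and for CPEB1 minus CPEB4 from 0.16 to 0.01.

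Between the antibodies, 1 of the 19 passed: Meg3 1452905_PM_at fell by 3.16 ± 0.22 on the log2 scale with CPEB1 relative to CPEB4 (limma adjusted p = 0.0264), where 0.575% of all probe sets passed as lower and 0.00888% as higher. It read 5.71 and 6.36 with CPEB1 and 8.81 and 9.58 with CPEB4. This call was lost without any 1 of the 8 arrays, with no genotype term, and with only the 4 arrays compared. The brightest Meg3 probe set did not share it, at 0.09 ± 0.38. The 2 brighter Rian probe sets were also lower with CPEB1, by -1.53 ± 0.39 and -1.58 ± 0.44 (limma adjusted p = 0.222 and 0.245), with no overlap of the arrays. Miat leaned the other way, 1.02 ± 0.87 higher with CPEB1 (limma adjusted p = 0.563), and Snhg11 differed by 0.04 ± 0.24. The median over the 19 was -0.03, against 0.16 over all. Both CPEB1 arrays were below both CPEB4 arrays for 5 of the 19 (14.4% of all) and above for 2 (38% of all). At an unadjusted p under 0.05, 3 were lower (7.16% of all) and 0 higher (7.79%), and 3 were at least 2-fold lower in both pools (5.12% of all) and 0 higher (0.424%).

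The order of the 4 fractions by their mean over the pools thus differed between the genes. In Malat1 it ran from IgG (10.06) over CPEB4 (9.49) and CPEB1 (9.19) to input (7.53), and no neighbours overlap. CPEB1 minus CPEB4 was -0.31 in WT and in HD, little larger than the SE of 0.23 from all 8 arrays. It turned to 0.091 under quantile normalization. In Meg3 1426758_PM_s_at it ran from IgG (11.76) over CPEB1 (11.08) and CPEB4 (10.99) to input (7.31), and CPEB1 and CPEB4 overlap. In Rian 1427580_PM_a_at CPEB4 led (10.66), before CPEB1 (9.12) and IgG (9.09), which overlap each other, and input (8.30), whose HD value of 9.22 lies among theirs. In Neat1 input led (5.25), then CPEB1 (4.68), IgG (4.45) and CPEB4 (4.21), of which CPEB1 and IgG overlap. In Snhg11 IgG led (5.42), then input (4.92), with CPEB1 (4.35) and CPEB4 (4.32) overlapping. In Miat 1458903_PM_at the pools of each precipitate lie 1.90 to 3.51 apart, so the order of CPEB1 (8.435), IgG (8.38), CPEB4 (7.41) and input (6.52) does not exceed that spread.

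Malat1 and the brightest Meg3 probe set had a Pearson r of 0.93 over the 8 arrays, but 0.37 over the 6 precipitates, so the likeness rests on the gap between input and precipitates. Malat1 and Neat1 had r = -0.86 over the 8 arrays and -0.40 over the 6 precipitates. These arrays share pools and lysates, and the values are given as a description. Among 5436 named genes with values above 4.23 on average and an SD of at least 0.5 over the 8 arrays, the most like Malat1 were Sub1 (r = 0.96), Ramp2 (0.96) and Rsrc2 (0.95). For Meg3 they were Son (0.97), Sde2 (0.95) and Mrps33 (0.95), and for Rian Wipf1, Daam2 and Col25a1 (each 0.95). For Neat1 they were Wapl (0.98), Henmt1 (0.97) and Muc4 (0.97), for Miat Lzts2 (0.95), Spice1 and Crygb (each 0.93), and for Snhg11 Sfi1 (0.94), Antxr2 (0.92) and Pnpla5 (0.91). Ramp2 shares annotated probe sets with Malat1, and whether its own probe set reads a separate transcript was not tested.

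Other noncoding RNAs, taken by each gene's brightest probe set, were not higher than input as a group. Of 14 measured long noncoding RNAs with nuclear or imprinted roles, 0 passed by limma in any of the 6 comparisons, and 9 had a mean above 4.23. Their median was -0.017 for IgG minus input (-0.04 over all probe sets), where 0 had an unadjusted p under 0.05. It was -0.30 for CPEB4 minus IgG (-0.17 over all), where 1 was higher and 1 lower at that level (9.9% and 11.4% of all). Tug1, which works in chromatin regulation, had its highest values with CPEB4, at 7.01 in WT and 5.97 in HD against 5.29 and 5.27 with IgG (1.21 ± 0.30, limma adjusted p = 0.142). Mirg, from the same imprinted domain as Meg3 and Rian, stood out on a single array: it read 8.19 on the HD IgG array and 3.91 to 6.03 on the other 7. Xist, the RNA of X inactivation, was dim on all 8 arrays of these male mice, at 3.36 to 3.94.

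Among 9 measured snoRNA host genes 0 passed by limma in any comparison. Their median for IgG minus input was -0.36, and at an unadjusted p under 0.05 there was 1 higher and 1 lower (3.6% and 5.34% of all). Snhg8 read 3.79 and 6.06 in input, 7.56 and 8.00 with IgG, 8.89 and 7.76 with CPEB1, and 10.34 and 9.77 with CPEB4. All its precipitate values lie above both inputs, with CPEB4 highest (5.13 ± 0.84 over input, limma adjusted p = 0.0693). Snhg6 was higher with CPEB4 than with IgG in both pools (2.29 ± 0.77, limma adjusted p = 0.204).

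The mRNAs of proteins of nuclear speckles and paraspeckles, which are translated in the cytoplasm, gave a protein-coding counterpart. For IgG minus input the median of the 12 measured was 0.92, against -0.04 over all probe sets. By limma 0 were called (0.00222% of all as higher), and at an unadjusted p under 0.05 there were 3 higher (3.6% of all) and 0 lower (5.34%). Son, a speckle scaffold protein, read 5.73 and 5.78 in input and 7.80 and 8.90 with IgG. Srrm2, another speckle protein, read 6.30 and 6.64 in input and 8.53 and 10.64 with IgG. In both genes the 4 antibody arrays also lay above input, as for Malat1 and Meg3. The list was not uniform: of the 12, IgG minus input was above 0 in 9 and below in 3, lowest in Srsf2 at -1.63. Srsf1 read 3.20 and 2.85 in input and 7.06 and 3.27 with IgG, so the pools differed. With CPEB4, 1 of the 12 rose over IgG, Hnrnpk, an RNA-binding protein (3.99 ± 0.39, limma adjusted p = 0.0322), where 1.26% of all probe sets rose, or 2.1% of those with a mean above 4.23. It read 8.19 and 8.01 with CPEB4 and 3.75 to 5.23 on the other 6 arrays. Of the protein-coding genes of the Dlk1-Dio3 domain 1 of 3 was measured, Dlk1, which differed from IgG by 0.41 with CPEB4 and -0.33 with CPEB1.

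The pools differed most in the precipitates. Each value here rests on 1 array per pool, so there is no replicate check and no test. In IgG, Miat 1458903_PM_at read 6.63 in WT and 10.14 in HD, and Meg3 1429257_PM_at 7.20 and 10.81. Both were also more than 2-fold higher in HD with CPEB1 (7.49 and 9.38; 7.71 and 9.61) and with CPEB4 (6.35 and 8.48; 7.97 and 10.22). In input they were close, at 6.63 and 6.40 and at 8.97 and 9.19. In Meg3 the WT precipitates lay below both inputs and the HD precipitates above, while in Miat the HD precipitates stood above all other arrays and of the WT precipitates CPEB1 alone lay clearly above both inputs.

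The HD value was higher for 16 of the 19 probe sets with IgG, for 14 with CPEB1, for 14 with CPEB4 and for 10 in input. Over all probe sets the share higher in HD was 57.8%, 62.5%, 58.1% and 41.4%, so it was also lowest in input. Medians of HD minus WT over the 19 were 0.67, 0.64, 0.55 and 0.01, against 0.05, 0.11, 0.06 and -0.07 over all probe sets. Past 2-fold, 6 were higher in HD with IgG (3.17% of all), 4 with CPEB1 (2.48%), 5 with CPEB4 (2.96%) and 3 in input (5.92%). Among probe sets with a mean above 4.23 these shares were 5.09%, 3.75%, 4.55% and 10.8%. Lower past 2-fold were 2 with CPEB1 (9.42% of all) and 0 with IgG (5.36%), CPEB4 (7.86%) and in input (2.69%). HD minus WT lay between -0.28 and 0.39 for Malat1 over the 4 fractions. For Neat1 it was 0.63 with CPEB1, near the median of the 19 there, and between -0.073 and 0.105 in the other fractions. In Rian the largest gap was in the input, where 1427580_PM_a_at was 1.83 higher in HD. Marker levels also moved between the pools. The mean of 8 medium spiny neuron markers went from 8.41 to 6.98 with IgG, from 8.87 to 7.49 with CPEB1 and from 8.87 to 8.01 with CPEB4. In input this mean was 7.72 and 7.68. Its members differed: with IgG, Ppp1r1b went from 11.04 to 8.32 and Drd1 from 4.50 to 4.62. In input, Penk went from 9.64 to 8.30 and Rgs9 from 8.67 to 9.76. The mean of 3 oligodendrocyte markers went from 7.72 to 7.13 with IgG, 7.87 to 7.66 with CPEB1, 8.15 to 8.13 with CPEB4 and 7.70 to 8.09 in input, and its members differed: with IgG, Mbp went from 11.41 to 9.85 and Mag from 6.68 to 7.14. Their part in the higher HD values of Meg3 and Miat was not tested.

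**Figure D4:**
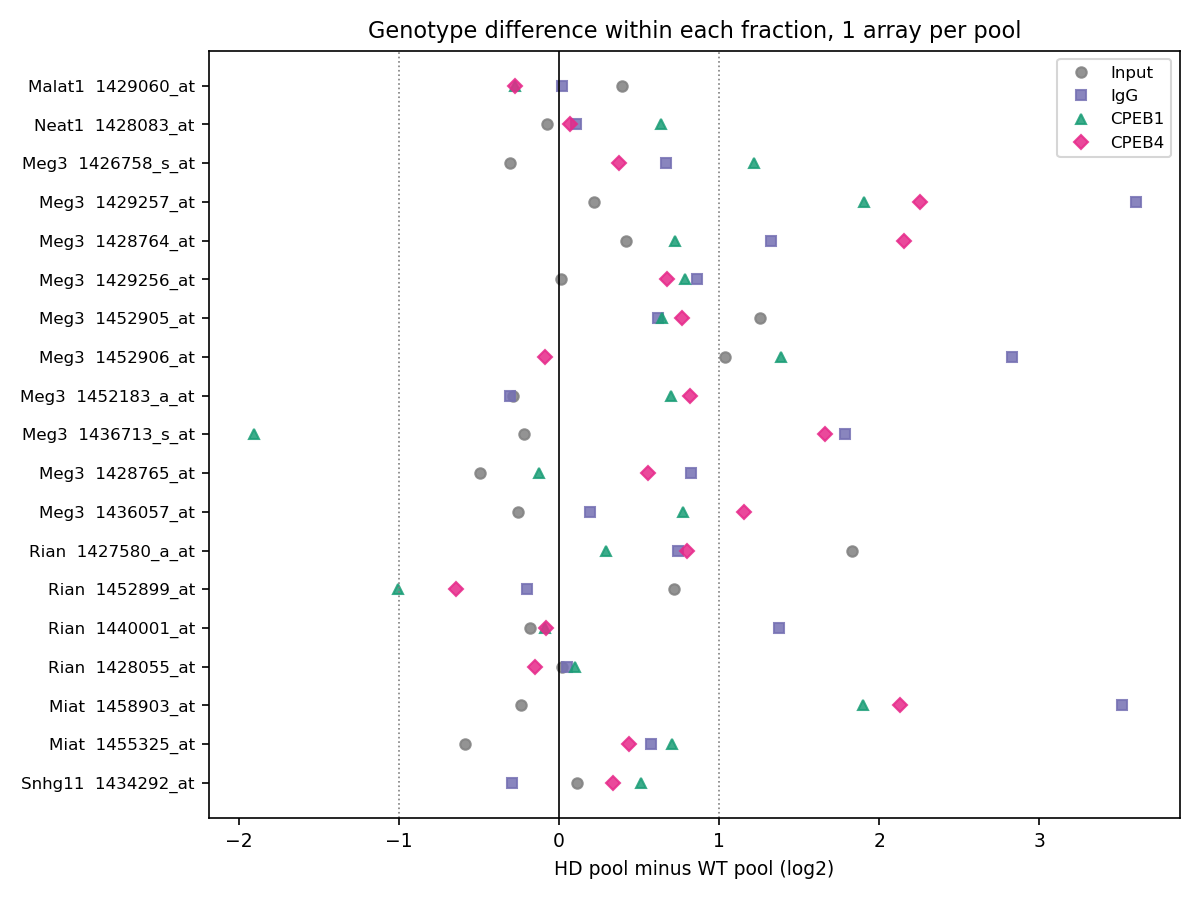
HD pool minus WT pool on the log2 scale for the 19 probe sets within input, IgG, CPEB1 and CPEB4, each from 1 array per pool (dotted lines, 2-fold). Meg3 1429257_PM_at and Miat 1458903_PM_at lie between 1.90 and 3.60 in the 3 precipitates and near 0 in input.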

How the data were processed

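The authors summarised each probe set with RMA, as the submitters' processing notes state, and deposited the result on a log2 scale. The version of RMA was not stated, nor was the set of arrays it was run on. They were used without further scaling. Genes were named from the platform annotation (1 symbol for 28898 of 45101 probe sets, several for 551, none for 15652), with symbols updated by gene ID for 28689 in the RefSeq table of GRCm38.p6. The array annotation names no build, so no coordinates are printed.

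The test was limma 3.58.1 in R 4.3.3 (lmFit, eBayes, two-sided, Benjamini-Hochberg over 45037 probe sets without spike-in and other control probe sets, threshold 0.05), with fraction and genotype pool as terms over all 8 arrays: 3 residual and 1.93 prior degrees of freedom. The 2 pools stand in for replicates, so p-values measure only how unevenly fractions differ between pools. An HD minus WT difference common to all fractions is taken up by the genotype term. Genotype differences that vary between fractions count as error. The same fit was run on simulated arrays with known changes. That check covered the size of the estimated differences, and says nothing on the p-values or calls given here. Precision is limited by how few arrays there are. Values near 4.23 are at the dim end of the scale, where array background may weigh on them, and no background level was estimated.

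Members, comparison lists and tests were chosen with earlier results of these data known. Named genes were all members, called or largest members of 4 lists (up to 3 per comparison), and the 3 genes with the highest r for each member; Xist, the 4 probe sets shared with Ramp2 and the cell type markers given as examples were named after their values were seen. Alternatives are listed with their effects in the closing section. No RNA or probe sequence of the members was used.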

Additional observations from a re-analysis of the deposited data

Results flagged for a closer look

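In 3 readings the pools moved in opposite directions by at least 2-fold each, all of them in Meg3, among 114 combinations of 19 probe sets and 6 comparisons; with 1 array per fraction and pool none of these differences was tested. For 1436713_PM_s_at, CPEB1 minus IgG was 2.02 in WT and -1.68 in HD, a difference of -3.70 between the pools. For 1429257_PM_at, IgG minus input was -1.77 in WT and 1.62 in HD, a difference of 3.39. The same probe set had CPEB4 minus input at -1.01 in WT and 1.03 in HD, a difference of 2.04, and both readings use the same input arrays.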

How the results depend on the processing

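Of 648 alternative values for the 6 genes by their brightest probe set, 592 kept their direction and side of the threshold, 27 changed sign, 27 lost a call (Malat1 13 and Meg3 14, CPEB4 against input) and 2 gained one (Rian, CPEB4 against input). The 4 calls of CPEB4 against input became 2 under quantile normalization and cyclic loess, 1 with 1 probe set or the mean per gene or trended robust eBayes, 0 with only the 4 arrays compared, and 0 to 1 without any 1 array. The 1 call between the antibodies became 0 with 1 probe set or the mean per gene, without the genotype term, with only the 4 arrays compared, and 0 to 0 without any 1 array. For IgG against input the 0 calls became 1 under quantile normalization and under cyclic loess (1452905_PM_at). The median for CPEB4 minus IgG moved from -0.29 to -0.61 (quantile), -0.13 (median centring), -0.67 (1 probe set per gene) and -0.55 (with the 4 probe sets shared with Ramp2, an alternative chosen after seeing the data), and ranged from -0.60 to 0.15 over arrays left out. That for CPEB1 minus input moved from 0.31 to 1.24 (1 probe set per gene) and 0.64 (mean per gene), and ranged from 0.31 to 0.70 over arrays left out; for CPEB4 minus input it ranged from 0.13 to 1.20. Probe sets past 2-fold between HD and WT in either direction numbered 3 in input, 6 with IgG, 6 with CPEB1 and 5 with CPEB4. At 1.5-fold they numbered 5, 11, 13 and 10, at 3-fold 1 in input and 3 with CPEB1, and after quantile normalization 10 with IgG. For CPEB4 minus IgG, Neat1 was 0.077 (loess) and Miat from -2.10 to 0.15 over arrays left out. For CPEB1 minus IgG, Rian was -0.50 (quantile), -0.76 (loess) and -0.13 (mean per gene) and from -0.38 to 0.45 over arrays left out, Miat -0.41 and -0.45 (quantile, loess) and from -1.07 to 1.18, and Neat1 from -0.067 to 0.53. Without shared-sequence probe sets (named _s_at, _a_at or _x_at), the brightest probe set is another one, 1429257_PM_at for Meg3 and 1452899_PM_at for Rian, and the sign changes are these probe sets' own values: Meg3 was 0.086 for CPEB4 minus IgG, -0.42 for CPEB1 minus input, -0.074 for IgG minus input and -0.43 for CPEB1 minus CPEB4, and Rian -0.043 for IgG minus input. Miat ranged from -0.48 to 2.27 for CPEB4 minus input over arrays left out. For CPEB1 minus CPEB4, Malat1 was 0.091 and 0.063 (quantile, loess), Meg3 -0.025 (median centring), -0.50 (mean per gene) and from -0.39 to 0.58 over arrays left out, and Snhg11 -0.055, -0.26 and -0.084 (quantile, loess, median centring) and from -0.20 to 0.27. For the other settings the cause was not tested. The fit is paired by genotype pool; without that term the count of CPEB4 against input was again 4, and that between the antibodies 0.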
